A study of Mus musculus with 12 samples.

Results

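The genes described here make, remove or bind 5-methylcytosine (m5C) in RNA. They are the writers Nop2, Nsun2 and Nsun7, the erasers Tet1, Tet2, Tet3 and Alkbh1, and the readers Ybx1, Alyref and Fmr1. The m5C peaks overlapping their protein-coding spans on the same strand were collected from 6 peak lists, which gave 97 peaks in 10 genes, of 9530 genes with a peak anywhere. These 10 are the members of a 20-gene m5C list that had a peak in at least 1 peak list, so that they carry peaks at all follows from how they were chosen. The tissue was whole hippocampus of female wild-type C57BL/6 mice, naturally aged to 18 months (aged) or 3 months old (young), with 3 immunoprecipitated (IP) and 3 input libraries of each age. Each peak list belongs to 1 IP library and its input. Whether the libraries of an age derive from separate mice is not stated in the labels, so a p-value here measures the spread among those libraries, possibly a technical one.

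Cytosine C5 methylation of RNA is placed by enzymes of the NSUN family and by Trdmt1. TET dioxygenases, known mainly for oxidising 5-methylcytosine in DNA, can also oxidise it in RNA, and ALKBH1 oxidises m5C in a mitochondrial transfer RNA. Reader proteins bind the modified base: ALYREF in mRNA export, YBX1 in mRNA stability, and FMRP, the product of Fmr1, is an RNA-binding regulator of translation at synapses whose loss causes fragile X syndrome in people. A peak in one of these genes marks the gene's own transcript as enriched by the m5C antibody and says nothing of the activity of its protein. Whether a peak is called also depends on how abundant the transcript is. In bulk tissue, fewer cells of a type and less RNA per cell cannot be told apart.

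Peaks reached the annotated transcription start in Fmr1 and Ybx1, and the sequence around those starts is shown because the peak edge can be placed on it. The windows are RefSeq promoter sequences of GRCm38.p6 (mm10), from 250 bases before to 30 bases after the listed start, 5′ to 3′ on the transcript strand, with the bases under a peak in capitals. All 10 members matched that table.
Fmr1, chrX:68678291-68678570, plus strand: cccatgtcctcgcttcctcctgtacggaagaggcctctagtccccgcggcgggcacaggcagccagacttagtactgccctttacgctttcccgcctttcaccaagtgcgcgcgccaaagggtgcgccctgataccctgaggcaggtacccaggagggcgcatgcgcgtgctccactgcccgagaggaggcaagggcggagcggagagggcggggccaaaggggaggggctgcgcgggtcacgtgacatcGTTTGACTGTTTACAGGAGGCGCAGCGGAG
Ybx1, chr4:119294484-119294763, minus strand: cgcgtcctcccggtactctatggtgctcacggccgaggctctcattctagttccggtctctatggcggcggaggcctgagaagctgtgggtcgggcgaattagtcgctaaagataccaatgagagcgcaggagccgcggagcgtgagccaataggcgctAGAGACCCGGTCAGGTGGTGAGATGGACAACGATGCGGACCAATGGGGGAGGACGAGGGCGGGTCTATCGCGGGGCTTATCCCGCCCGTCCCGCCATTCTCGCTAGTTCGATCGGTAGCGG

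RefSeq lists 2 starts for Fmr1, and the window shown is that of the upstream one. The Fmr1 peak began at that start, position 68678541, in all 6 lists, which is 41 bases before the other listed start at 68678582. In Ybx1 the peak of 2 aged lists began 91 bases before the listed start, inside the gene span, which reaches 1752 bases further upstream than that start. Both windows were rich in CG dinucleotides, with 24 in Fmr1 (25 in the window of its other start) and 30 in Ybx1, against a median of 12 over 21263 windows of protein-coding genes. These counts cover the whole window of 280 bases, of which 30 in Fmr1 and 121 in Ybx1 lay under the peak. Cytosine made up 16.7% of the bases under the peak and 30.7% of the window in Fmr1, and 26.4% and 26.8% in Ybx1. The motif CNGGG, known as a context of NSUN2 sites in mRNA, occurred once on the transcript strand in each window shown and 4 times in Fmr1 and 2 times in Ybx1 on the other strand. On the transcript strand of the windows shown, both occurrences lay before the listed start. That of Fmr1 was outside the bases under the peak, and that of Ybx1 was among them. In the window of the other Fmr1 start CNGGG occurred 2 times on the transcript strand. It was present on the transcript strand in 80.5% of all windows and on either strand in 92.4%. The motif CTCCA, a context of NSUN6 sites, occurred once on the transcript strand in Fmr1 and on neither strand in Ybx1, with 38.0% of windows holding it on the transcript strand and 62.4% on either. In Fmr1 CTCCA too lay before the start, outside the bases under the peak.

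Peaks in the member genes were more numerous in aged lists, as were peaks in all. The aged lists held 23, 18 and 17 peaks in these genes, and the young lists 15, 11 and 13, so every aged list lay above every young list. The means were 19.3 ± 3.21 peaks in aged and 13 ± 2.0 in young lists (SD, n = 3 each, exact permutation p = 0.1, two-sided, adjusted p = 0.25 over 5 comparisons). No p below 0.1 is possible with 3 lists against 3. Nsun2 and Alyref are members through peaks in aged lists alone, so the choice of members adds to the aged side. Their peaks numbered 1, 2 and 0 (Nsun2) and 1, 1 and 0 (Alyref) in aged lists. Without those peaks, aged list 2 would not lie above young list 1, so the separation rests in part on that choice.
The whole lists held 15189, 14008 and 14294 peaks in aged and 9887, 8549 and 10392 in young samples, and read depth is unknown. Per 10000 peaks of its list, the members had 15.1, 12.8 and 11.9 peaks in aged and 15.2, 12.9 and 12.5 in young samples, values that overlapped (difference -0.221, exact permutation p = 0.7, a measure added after the data were seen). With every list cut to the length of the shortest, 8549 peaks, by keeping the highest scores, there were on average 11.3 ± 0.577 member peaks in aged and 10 ± 1.73 in young lists (SD, n = 3 each, exact permutation p = 0.6).

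**Figure D1:**
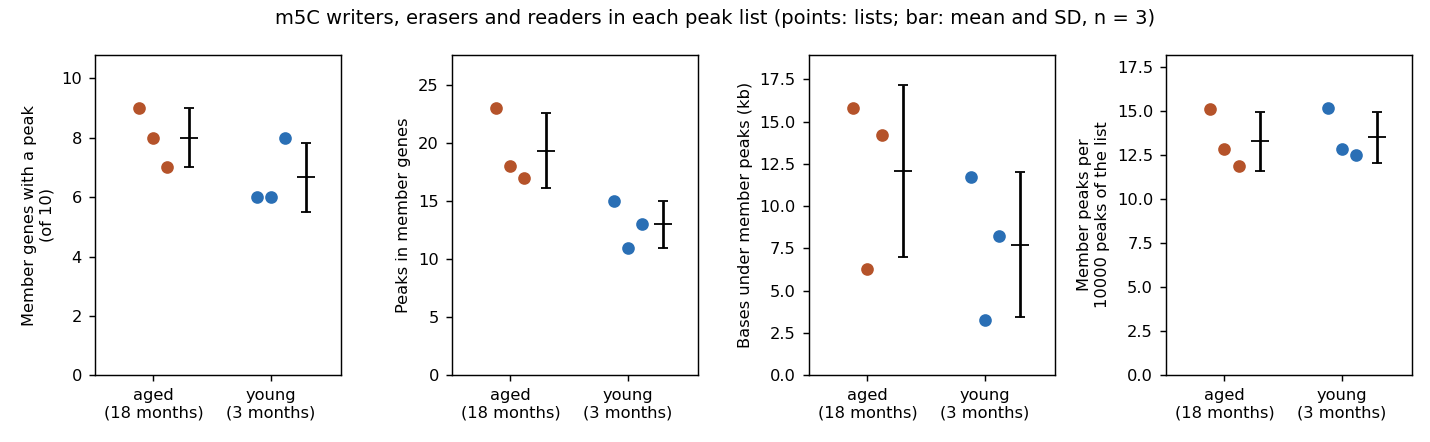
Member genes with a peak, peaks in member genes, kilobases under those peaks, and member peaks per 10000 peaks of the list, for 3 aged and 3 young lists (points), with mean and SD (n = 3). The number of peaks separates the ages, at 17 to 23 in aged and 11 to 15 in young lists, while the number per 10000 peaks overlaps. Nsun2 and Alyref, members through aged lists alone, are counted, and the separation depends on them.

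The number of the 10 genes with a peak was 9, 8 and 7 in aged lists and 6, 6 and 8 in young lists, which overlapped (8 ± 1.0 and 6.67 ± 1.15, SD, n = 3 each, exact permutation p = 0.3, adjusted p = 0.375). Nsun2 and Alyref, members through aged lists alone, each counted in aged lists 1 and 2. Without these genes the mean number would be the same at both ages, so the difference follows from the choice of members. Bases under the peaks numbered 15799, 6301 and 14180 in aged and 11735, 3248 and 8218 in young lists (exact permutation p = 0.3, adjusted p = 0.375). In each age the list numbered 2 had the fewest bases, and its wide Tet peaks were few or absent, as described with the Tet genes.
Nop2, Tet1, Tet2, Tet3, Ybx1 and Fmr1 had a peak in all 6 lists. Over all genes with a peak anywhere, 32.0% did so. Nsun2 and Alyref were peak-bearing in 2 aged lists and 0 young ones, as were 6.33% of genes, and Nsun7 and Alkbh1 in 1 list of each age, as in 5.07% of genes. Gene by gene, the mean number of peaks differed between aged and young lists by at most 1.33, in Tet1 (2.67 ± 0.577 and 1.33 ± 0.577) and Ybx1 (2.33 ± 1.15 and 1 ± 0, SD, n = 3 each), and for each of the 10 genes the aged and young counts overlapped. No member had a peak in all lists of one age and none of the other, where the background was 4.24% of genes for the aged side and 0.808% for the young side.

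Joining adjacent or overlapping peaks of either age, strand by strand, gave 32 regions. Of these, 7 had a peak in all 6 lists (17.6% of all 24501 regions did). The 3 aged lists and none of the young ones shared 1 region (5.13% of all regions), and the 3 young lists alone shared 0 (0.637%). A further 10 regions were found in 1 list each, 8 of them in an aged and 2 in a young list, which is 31.3% of the member regions against 34.7% of all regions. More aged than young lists carried the peak in 18 regions (56.3%, against 56.0% of all regions), fewer in 4 (12.5% against 18.1%).
Of the 22 regions seen in 2 or more lists, 12 had identical ends in each list that carried them, as did 66.2% of such regions over all genes. These shares are given as descriptions and were not tested.

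**Figure D2:**
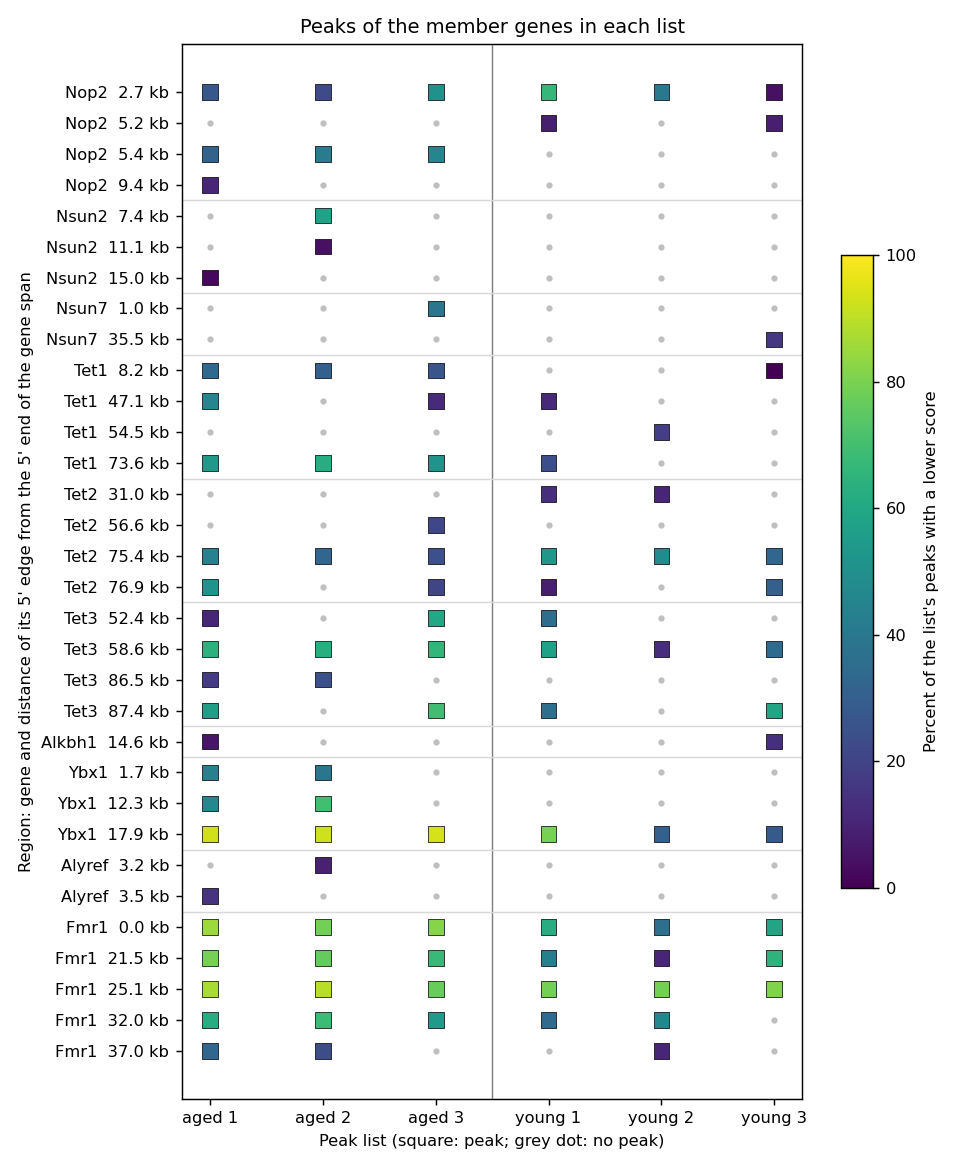
The 32 regions (rows, by gene and distance of the 5′ edge from the 5′ end of the gene span in kb) in the 3 aged and 3 young lists (columns); a square is a peak, coloured by the percent of that list's peaks with a lower score, and a grey dot is no peak. Filled rows of 6 squares are seen 3 times in Fmr1 and once each in Nop2, Tet2, Tet3 and Ybx1.

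Among the writers, Nop2, which methylates ribosomal RNA, was the only one with a recurrent region. Its span of 12.9 kb on the plus strand of chromosome 6 held 4 regions, with 3, 2 and 2 peaks in aged and 2, 1 and 2 in young lists. The region from 125134547 to 125134731, 2.66 kb into the span, had a peak with the same ends in all 6 lists. The authors' score of that peak was 82.1, 74.0 and 145 in aged lists and 246, 93.2 and 52.9 in young lists, ranges that overlapped. Scores describe peaks within a list, since the scale depends on each library, and they are no measure of a change with age.
A pair of neighbouring Nop2 regions was split by age. The region from 125137311 to 125137510 had peaks in all 3 aged lists, with scores of 90.1, 112 and 125, and in no young list. The region from 125137055 to 125137215, which ends 95 bases before it, had peaks in young lists 1 and 3, with scores of 57.0 and 56.0, and in no aged list. All 5 of these scores lay below the medians of their lists, which were 142 to 144 in aged and 117 to 137 in young lists. Joined as 1 region, which peaks up to 100 bases apart would be, the pair was present at both ages, and no member region was then restricted to aged lists. A single further peak, from 125141274 to 125141502, was in aged list 1 with a score of 59.1.

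Nsun2, which methylates transfer RNAs and mRNAs, had 3 regions in its 23.8 kb span on chromosome 13, each in 1 aged list. Aged list 2 had peaks from 69619446 to 69619638, with a score of 183, and from 69623163 to 69623293, with 53.2. Aged list 1 had a peak from 69627036 to 69627166 with 51.8, and aged list 3 and the young lists had none. The lowest score any list holds is 50, so 2 of these 3 peaks lay at the edge of what was listed. At equal list length the peak with the score of 183 was the only Nsun2 peak kept.
Nsun7, a less studied member of the family with a role in sperm motility in the mouse, had 2 peaks in 40.1 kb on chromosome 5. One was from 66260841 to 66261244, 1.0 kb into the span, in aged list 3 (score 105), and one from 66295384 to 66296172 in young list 3 (score 62.9). Another peak, one that overlapped the 3′ end, from 66299637 to 66301333 in aged list 2, lay on the minus strand, where the neighbouring gene Apbb2 is annotated, and was not counted.

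The Tet genes, whose spans of 81.5 to 94.8 kb were the longest of the members, carried the widest peaks. Of 40 Tet peaks, 57.5% were 700 bases wide or more, against 8.77% of the 57 peaks of the other members and 21.9% to 24.9% of all peaks of a list. That width was chosen after the peaks were seen. The widest, 3038 bases from 133485512 to 133488549 in Tet2, was in aged list 3 alone. By list, there were 6, 2 and 7 wide Tet peaks in aged and 5, 0 and 3 in young samples, so that the numbers overlapped and list 2 was lowest in each age.
Tet1 had no region in all 6 lists. Its peaks numbered 3, 2 and 3 in aged and 2, 1 and 1 in young lists. The region from 62812583 to 62813824 on the minus strand of chromosome 10, 8.01 kb before the 3′ end of the span, had scores of 163, 213 and 149 in aged lists and 74.9 in young list 1. The region from 62878152 to 62879233, 8.24 kb from the 5′ end, had 94.7, 86.3 and 78.8 in aged lists and 50.2 in young list 3. Both regions were thus found in 3 aged lists and 1 young list. Another, from 62838176 to 62840378, was in aged lists 1 and 3 and young list 1. Young list 2 had a Tet1 peak of 94 bases, from 62832894 to 62832987, that no other list shared.

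Tet2, which has a known role in blood stem cells, had 2, 1 and 3 peaks in aged and 3, 2 and 2 in young lists, numbers that overlapped. The region from 133469276 to 133469767 on the minus strand of chromosome 3, 5.60 kb before the 3′ end, was in all 6 lists with identical ends and scores of 121, 91.6 and 76.6 in aged and 150, 111 and 83.4 in young lists, which overlapped. Beside it, the wide region from 133466137 to 133468190 was present in aged lists 1 and 3 and young lists 1 and 3. A narrow region from 133514029 to 133514173 was found in young lists 1 and 2, with scores of 61.6 and 57.0, and in no aged list.
Tet3 had 4, 2 and 3 peaks in aged and 3, 1 and 2 in young lists. Its region in all 6 lists was a narrow one of 179 bases from 83398439 to 83398617 on the minus strand of chromosome 6, at 61.9% of the span. The scores there were 232, 222 and 249 in aged and 170, 59.1 and 85.9 in young lists. Within their lists, these peaks stood above 63.7%, 63.1% and 65.6% of peaks in aged and above 57.3%, 12.9% and 34.4% in young samples. Wide peaks lay on both sides of it, from 83402667 to 83404824 in 3 lists and from 83367829 to 83369825 in 4 lists, none of them in a list numbered 2. The region from 83370383 to 83370719 had peaks in aged lists 1 and 2 only, with scores of 67.5 and 77.5.
Alkbh1 had a single region, from 87428159 to 87429256 on the minus strand of chromosome 12, near the 3′ end of its 15.8 kb span. The peak of aged list 1 ended 82 bases before the span's end and had a score of 54.6, and that of young list 3 ended 363 bases before it and had 60.7. Both scores lay close to the lowest listed value.

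**Figure D3:**
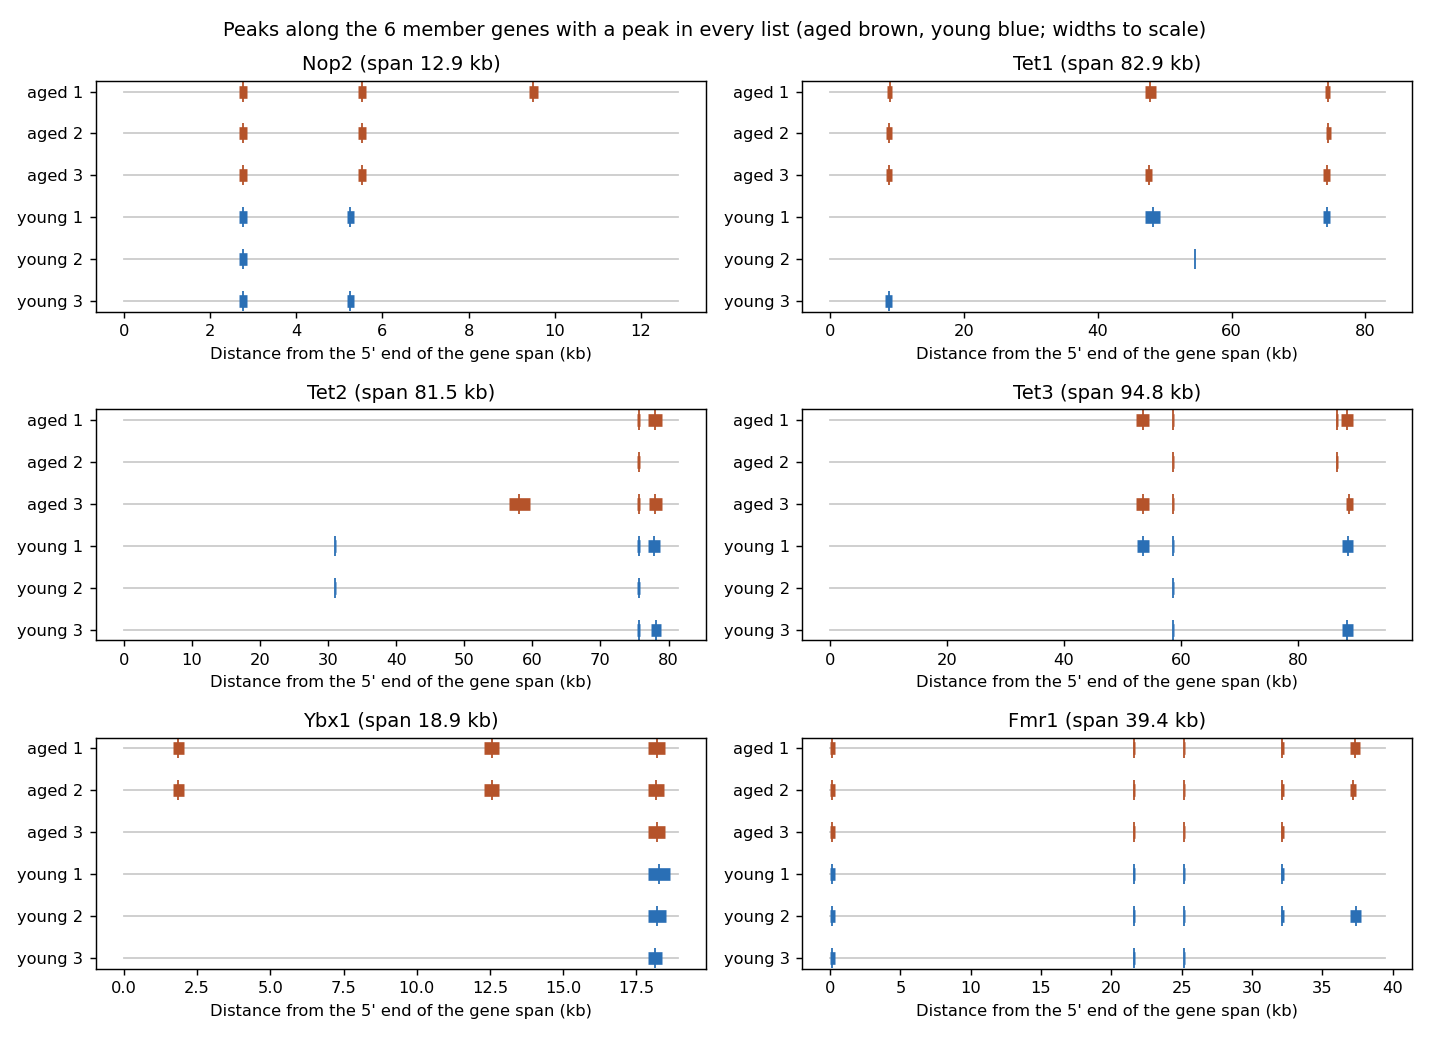
Peaks of the 6 members with a peak in all 6 lists, drawn to scale along the gene span (kb from its 5′ end), with aged lists above young ones and a thin tick at each peak's midpoint. Fmr1 shows the same positions in list after list, Ybx1 a 3′ peak in all 6 lists with further peaks in aged lists 1 and 2, and the Tet genes wide and narrow peaks side by side.

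Among the readers, Ybx1 had the highest-scoring member peak in the 3 aged lists and in young list 1. The cold-shock protein it encodes binds m5C in mRNA. The region from 119277634 to 119278367 on the minus strand of chromosome 4, in a span of 18.9 kb, had a peak in all 6 lists, 473 to 734 bases wide and ending 307 to 568 bases before the span's 3′ end. Its scores were 1980, 1718 and 2148 in aged lists and 490, 76.6 and 75.8 in young lists, with no overlap. Of the 7 member regions in all 6 lists, 4 had every aged score above every young one and 0 had the reverse, against 45.7% and 1.85% of the 4317 such regions over the whole lists, so a separation of scores by age was common. It stood above 92.9%, 92.3% and 93.7% of the peaks of its list in aged and above 79.6%, 30.2% and 27.9% in young samples. The ratio to the median score of the list was 13.8, 11.9 and 15.2 in aged and 3.58, 0.655 and 0.622 in young samples. Lists of unequal length and unknown depth do not give levels, so these values describe where the peak stood in each list and not a change, and no test was made.
All 6 lists shared the 5′ edge of that peak at position 119278367 (on the minus strand), while its 3′ edge varied. The other Ybx1 regions were absent from young lists. The peak over the listed start, from 119294204 to 119294604, had scores of 119 and 106 in aged lists 1 and 2, and the region from 119283441 to 119283968 had 132 and 297 in the same lists. Aged list 3 had the 3′ peak alone, as each young list did. The peaks per list were 3, 3 and 1 in aged and 1, 1 and 1 in young samples. The gene table holds 1 pseudogene named after Ybx1, and the handling of reads with several matches is not stated in the labels.

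Alyref, an mRNA export adaptor with the shortest span of the members (3.90 kb, chromosome 11), had 2 peaks towards its 3′ end. Aged list 1 had one from 120594172 to 120594867, which runs beyond the 3′ end of the span at 120594504, with a score of 63.6. Aged list 2 had one from 120594980 to 120595154 with 58.0. These do not overlap, and neither remained at equal list length.

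Fmr1 had the most recurrent peaks, 26 of the 97 (26.8%), in 5 regions along 39.4 kb of the plus strand of chromosome X. There were 5, 5 and 4 peaks in aged and 4, 5 and 3 in young lists, so the ages overlapped. In 3 regions all 6 lists had a peak with identical ends. Of the genes with a peak, 3.03% had at least 3 regions of that kind.
The start peak, from 68678541 to 68678867, was the only member peak with its midpoint in the first 1000 bases of a span, in every list. Its scores were 809, 473 and 609 in aged lists and 206, 86.3 and 159 in young lists, which did not overlap, as in 45.7% of the 4317 regions of all 6 lists. The region from 68700060 to 68700230 had scores of 509, 413 and 268 in aged and 111, 57.1 and 197 in young lists. The region from 68703663 to 68703772, only 110 bases wide, had 945, 1121 and 424 in aged and 465, 366 and 433 in young lists, with overlap between the ages.
Within a list the order of the Fmr1 peaks can be compared directly. The 110-base peak had the highest Fmr1 score in aged lists 1 and 2 and in all 3 young lists, and in aged list 3 the start peak did. Its score was 1.17 and 2.37 times the second highest in aged lists 1 and 2, and 2.25, 3.39 and 2.20 times in young lists 1, 2 and 3. In aged list 3 the start peak was 1.44 times the second highest.
Towards the 3′ end, the region from 68710584 to 68710779 was missing from young list 3 alone, with scores of 216, 273 and 162 in aged and 90.7 and 108 in young lists 1 and 2. The last region, from 68715514 to 68716263, was in aged lists 1 and 2 and young list 2. At equal list length, Fmr1 kept 4, 4 and 4 peaks in aged and 4, 5 and 3 in young lists.

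**Figure D4:**
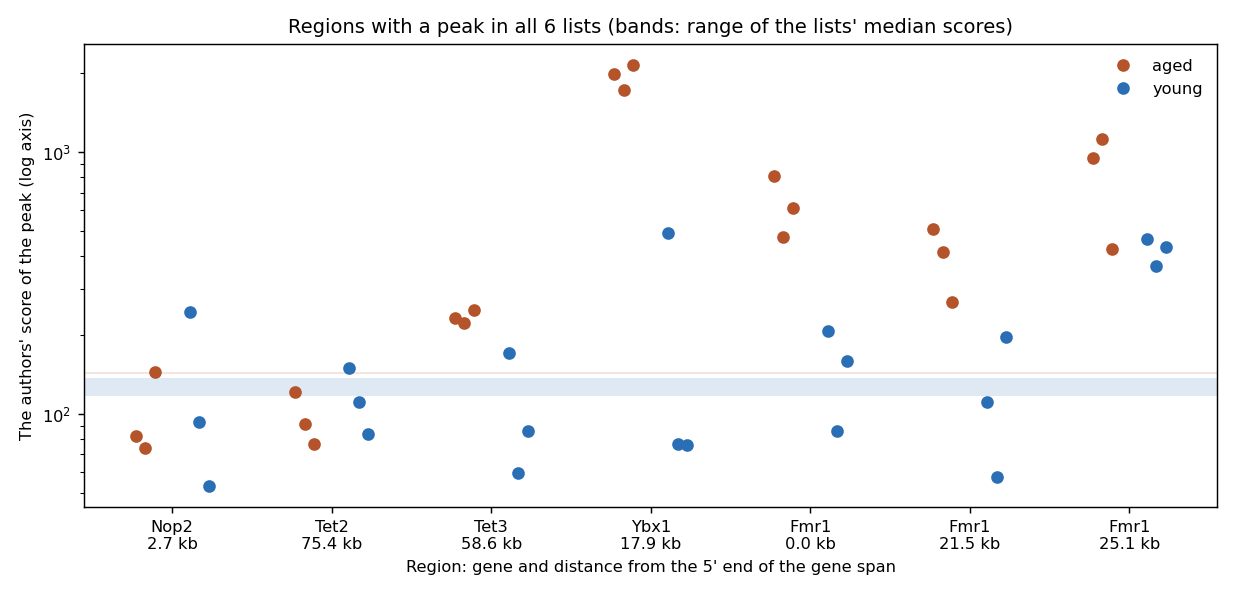
The authors' peak scores (log axis) of the 7 regions with a peak in all 6 lists, for 3 aged (brown, left) and 3 young (blue, right) lists each; the bands give the range of the lists' median scores (142 to 144 aged, 117 to 137 young). The Ybx1 scores are 1718 to 2148 in aged and 75.8 to 490 in young lists, and the scores overlap between ages in Nop2, Tet2 and the Fmr1 region at 25.1 kb.

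Place along the gene was described by the share of peaks at either end. The share with a midpoint in the first 1000 bases was 4.35%, 5.56% and 5.88% in aged and 6.67%, 9.09% and 7.69% in young lists (difference of means -2.55 percentage points, exact permutation p = 0.1, adjusted p = 0.25). The window runs from the 5′ end of the span. For Ybx1 that end lies 1752 bases before the listed start, so its start peak in aged lists 1 and 2 was not counted. In each list this share stood for 1 peak, that of Fmr1, over a different number of member peaks. The comparison therefore follows from the peak numbers given above and says nothing of place. For the last 1000 bases the shares were 13.0%, 11.1% and 5.88% in aged and 6.67%, 9.09% and 15.4% in young lists, which overlapped (exact permutation p = 0.9, adjusted p = 0.9). The corresponding shares over all genes were 9.44% to 10.7% in aged and 8.63% to 9.38% in young lists for the start, and 8.31% to 8.94% and 8.83% to 9.33% for the end.
Of the 32 regions, 12 had their midpoint in the last 20% of the span (37.5%, against 36.9% of the regions of all genes) and 4 in the first 20% (12.5% against 15.8%). The 12 belonged to 8 members, Nop2 and Nsun2 being without one.

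Related genes were set beside the members. Over all 21900 protein-coding spans, 9530 genes had a peak in at least 1 list, and 32.0% of these had one in all 6 lists. The counts below were not tested against those shares. The 10 remaining genes of the 20-gene m5C list, among them the methyltransferases Nsun3, Nsun4, Nsun5, Nsun6 and Trdmt1 and the candidate readers Ybx2, Ybx3 and Srsf2, had no peak in any list, which is why they are not among the members. Of 11 genes of DNA cytosine methylation, 8 had a peak and 4 had one in all 6 lists, among them the methyltransferase genes Dnmt1, with 29 peaks, and Dnmt3a, with 14. The number with a peak was 6.67 ± 0.577 in aged and 6 ± 0 in young lists (SD, n = 3 each).
Of 8 other AlkB dioxygenase genes, 4 had a peak, and Fto, which removes methyl groups from adenosine in mRNA, had 16 peaks over all 6 lists. All 7 FMRP relatives and partners had a peak, with Caprin1 and Nufip2 in every list and Fxr1, Fxr2, Cyfip1 and Cyfip2 in 3 aged and 2 young lists. That group had 7, 6 and 6 genes with a peak in aged and 4, 5 and 5 in young lists, and over all genes the number with a peak was likewise separate by age, at 6342 to 6777 in aged and 4894 to 5442 in young lists. Of 12 genes of the TREX export complex, to which ALYREF belongs, 9 had a peak and Thoc1, Thoc2 and Sarnp had one in every list, with 7, 6 and 7 in aged and 8, 5 and 5 in young lists. Of 5 genes for mRNA-stabilising partners of YBX1, 4 had a peak, and Pabpc1 had 18 peaks over all 6 lists. None of the genes of these lists was found in all lists of one age and none of the other.

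Peak lists hold no expression levels, so the tissue label can be set only against the presence of peaks. All 8 markers of hippocampal neurons had a peak, and Prox1, Zbtb20, Neurod2, Neurod6, Camk2a and Slc17a7 had one in all 6 lists. Over all 21900 protein-coding spans, 9530 genes had a peak in any list, and 32.0% of these had one in all 6 lists. Whether the marker counts set this tissue apart was not tested. Of other cell types, peaks were found in 3 of 3 inhibitory neuron, 4 of 4 astrocyte, 4 of 4 oligodendrocyte, 1 of 4 microglia, 2 of 3 endothelial and 1 of 3 choroid plexus markers. The inhibitory neuron markers had 2 genes with a peak in each aged list and 0 in each young list, the endothelial ones 2 in each aged and 1 in each young list, beside the separation by age over all genes given above. Gad1, the astrocyte gene Aldh1l1 and the endothelial gene Pecam1 had peaks in all aged and no young lists, as 4.24% of genes did. Other markers of glia, vessels and choroid plexus did not share that pattern: Gfap, Slc1a3, Mag, Cx3cr1 and Flt1 had peaks in all 6 lists, Aqp4 in 2 aged and 3 young lists, and Mog and Ttr in 0 aged lists and 1 young list. Whether these differences bear on the member genes was not tested.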

How the data were processed

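RNA was captured with an m5C antibody, and IP and input libraries were sequenced, 3 of each per age (12 libraries). Tools listed in the submitters' processing notes are HISAT2 2.0.4 and cutadapt 1.9.3, with mm10 as the build. The authors deposited 1 peak list per IP library and its input, with a start, end, strand and score for each peak. Peak names carry the word MACS, per the files themselves; caller version and settings: not given in the sources used here. Each score is the authors' own value per peak, at least 50 in each list, and is saturated near 3100, a value no member peak reached. No read counts came with the lists, so depth and precision are unknown. No 2 lists were copies: at most 2.91% of the peaks of a list recurred with equal ends and score in another.

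Peaks were assigned to 21900 protein-coding spans of GRCm38.p6 by an overlap of at least 1 base on the gene's strand. Strands came from listed promoters or, for 4408 spans with none, from the majority of peaks overlapping that span alone. The table holds no exons. Positions are 1-based mm10 coordinates. The ages were compared over samples by two-sided exact permutation tests, with Benjamini-Hochberg adjustment over 5 comparisons (Python 3.11.15, SciPy 1.17.1). Finding planted peaks in their genes, joining regions and the tests were checked on simulated data. That check did not cover peaks on the opposite strand, false assignments, place along the gene or strands taken from peaks. Alternatives were peaks scoring at or above their list's median, equal list length, at least 50% of the peak inside the span, strand ignored, other ways of joining regions, a narrower end window, each list left out in turn and a replicate block. All 10 members are named. Members and gene lists were chosen with earlier results of these data known.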

Additional observations from a re-analysis of the deposited data

How the results depend on the processing

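Which results turned on the processing can be told from the values. The excess of member peaks in aged lists (6.33) kept its sign with peaks scoring at or above their list's median, at equal list length, and under each list left out, but was -0.221 as member peaks per 10000 peaks of the list. At equal list length the difference in member genes with a peak was 0. The regions in all 6 lists numbered 1 instead of 7 with peaks scoring at or above their list's median, and 5 at equal list length. With a list left out, the regions in all remaining lists numbered 7 to 8 (8 without young replicate 3). The 1 region in all aged and no young lists became 0 with peaks joined up to 100 bases apart, 0 at equal list length, 2 with peaks scoring at or above the median, and 1 to 4 with a list left out (4 without aged replicate 3, 2 without young replicate 1 or 3). Regions in all young and no aged lists numbered 0 to 1 with a list left out (1 without young replicate 2 or 3). The share of peaks near the gene end (aged minus young, -0.368 percentage points) was 1.45 with a window of 500 bases, 5.19 with peaks at or above the median, 1.19 with strand ignored, and -2.23 to 2.13 with a list left out. For Tet2 the difference of -0.333 peaks was -0.833 to 0.167 with a list left out, the positive value without aged replicate 2, and it was -1 at equal list length and 0 with peaks at or above the median. Apart from the alternatives' own construction, causes were not tested.

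The lists share the numbers 1 to 3 across ages. As a replicate block, the difference of 6.33 peaks had an exact sign-flip p of 0.25, the smallest that 3 pairs allow. Neither this test nor the permutation test of 3 lists against 3 can fall below 0.05. That no call changed was therefore fixed in advance. Deviations of peaks per gene from the age mean correlated by 0.0227, 0.108 and 0.0391 between lists of the same number over 9530 genes. Between lists of different numbers the correlations were -0.0697 to 0.0374, so the value of 0.108, for the lists numbered 2, was the highest. All were low, and the numbers were not taken as pairs. Whether lists of the same number share a batch was not tested.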
